A study of Mus musculus with 18 samples.

Results

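Collagens are the triple-helical proteins that make up most of the extracellular matrix, and their genes are followed here through the making of germ cells from mouse embryonic stem (ES) cells and in germ cells taken from the animal. The genes were chosen by name: every probe on the array that is no control and whose gene name is Col, a number, the letter a and a number, which gave 78 of 41174 probes and 40 genes. Of these, 11 encode chains of fibrillar collagens and 6 encode the Col4 chains of basement membranes, and 28 genes had several probes. A gene could be tested when 1 of its probes was well above background, by the flag of the image extraction, on both arrays of at least 1 group. This held for 37 of the 40 genes, with 10 of the fibrillar and all 6 of the Col4 genes among them, while Col19a1, Col24a1 and Col28a1 were not tested.

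RNA of 18 samples was measured on one-colour Agilent arrays that cover the mouse genome's genes, 2 arrays in each of 9 groups, from mice or cells of a mixed C57BL/6 129SV strain labelled male. A pair of ES lines carried a green fluorescent protein (GFP) reporter, a Stella-GFP line (Stella is the product of Dppa3, a gene of early germ cells) and a Dazl-GFP line (Dazl is an RNA-binding protein of germ cells). Undifferentiated cells of each line, grown with LIF on feeder mouse embryonic fibroblasts, were sorted into GFP-negative and GFP-positive cells, which gave 4 groups. After removal of the feeders on plastic and differentiation on gelatin, GFP-positive cells were sorted at day 7 from the Stella-GFP line and at days 12 and 16 from the Dazl-GFP line, and the labels call them in vitro primordial germ cells. The remaining groups were Dazl-GFP-positive cells sorted from dissociated embryonic gonads (E13.5) and from testes at postnatal days 7 to 11, called juvenile testis here. The differentiated cells were released with trypsin and collagenase IV, and the gonads by enzymes that the labels do not name. Each line is a single reporter line, and whether the 2 replicates of a group are separate cultures or animals is not given in the labels. The p-values therefore speak only of the spread among these arrays, which may be technical.

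Fibrillar collagens (types I, II, III, V, XI, XXIV and XXVII) assemble into the cross-banded fibrils that give connective tissue its strength, and fibroblasts are their usual source. Type IV collagen forms a sheet-like network in basement membranes, and the Col4a1 and Col4a2 chains build the form found under nearly every epithelium and vessel, laid down in the early embryo by primitive endoderm. The genes of Col4a1 and Col4a2 lie head to head and share a promoter. Other collagens sit on the surface of fibrils (the FACIT group), form beaded filaments (type VI), form other networks (types VIII and X), anchor epithelium (type VII) or span the cell membrane.

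Promoter sequences are printed for Col1a2 and Col3a1, which fell together in the Dazl-derived cells, and for the shared start region of Col4a1 and Col4a2, which rose as a pair at days 7 and 16. They are from RefSeq on build GRCm38.p6, whose table held a promoter for 32 of the 40 genes. The first is the 120 bases before the annotated start of Col1a2 (chr6:4505498-4505617, plus strand), and the capitals mark a CCAAT box 109 bases before the start. The second is the 120 bases before the start of Col3a1 (chr1:45311418-45311537, plus strand), with a TATAAA motif in capitals 117 bases before it. The third runs over 30 bases of chromosome 8 (chr8:11312801-11312830, plus strand), where the capitals mark the 22 bases that lie in both transcripts' first bases, from the start of Col4a2 at 11312805 on the plus strand to that of Col4a1 at 11312826 on the minus strand.
Col1a2: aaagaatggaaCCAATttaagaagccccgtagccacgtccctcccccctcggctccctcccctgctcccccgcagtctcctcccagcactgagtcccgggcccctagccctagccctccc
Col3a1: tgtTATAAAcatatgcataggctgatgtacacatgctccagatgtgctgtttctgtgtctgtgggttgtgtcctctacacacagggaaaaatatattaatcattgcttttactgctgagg
Col4a1 and Col4a2: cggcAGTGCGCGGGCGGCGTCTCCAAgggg
In the 250 bases before the start, read on both strands, CCAAT was found in 12 of 35 collagen promoters and in 33.8% of all 32851 promoters in the table. The motif TATAAA was found in 5 of the 35 and in 12.4% of all, and GGGCGG in 19 of the 35 and in 32.7% of all. None of the 3 motifs contains another, and a match is a description of the sequence and not a site. Among the tested genes, Col3a1 and Col5a2, Col4a3 and Col4a4, Col4a5 and Col4a6, and Col6a1 and Col6a2 are also neighbours in that annotation.

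Levels are log2 signals from which the array's own 75th percentile, also as log2, was taken away, so a level of 0 is the signal that 75% of the spots do not exceed. Levels are compared between arrays for 1 gene and not between genes. The summed signals of gene lists given below add linear signals over genes, so the brightest probes weigh most in them. The percentile lay between 103 and 474 and 50.6% to 68.9% of spots were well above background, with no saturated spot on any array. The reporter gene Dazl stood between -3.42 and 0.79 in ES cells and between 4.78 and 5.42 in the Dazl-GFP cells of day 12, day 16, E13.5 and juvenile testis. The library labelled E13.5 replicate 1 goes against its male label: neither of the Y-linked genes Ddx3y and Eif2s3y rose well above background there, and both did on the other 17 arrays. Counts over all collagens are therefore given also after leaving that library out, and so is every call that is lost by it. The arrays lay on 6 slides. Day 7 had slides and a scan day of its own and, per the file headers, an image extraction protocol that no other array used. E13.5 and juvenile testis shared a slide and a scan day with no cultured cells. Slide, scan day and, for day 7, extraction protocol therefore cannot be told apart from group in the comparisons of day 7 with ES cells and of E13.5 with day 12. Replicates of the Stella ES sort and of E13.5 lay farther apart than those of other groups: the median gap between replicates over the collagens was 0.67 and 0.82 in the Stella ES groups and 0.96 at E13.5, and between 0.11 and 0.53 in the others.

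Of the 40 genes, 24 to 28 reached a signal well above background on both arrays of an ES group, 21 at day 7, 30 at day 12, 32 at day 16, 28 at E13.5 and 32 in juvenile testis. As shares, these were 60% to 70% of the collagens in ES groups against 50.9% to 52.4% of all genes, and 52.5% against 52.2% at day 7. At days 12 and 16 they were 75% and 80% against 56.3% and 57.7%, and at E13.5 and in juvenile testis 70% and 80% against 59.7% and 63.4%. A gene counted here through any of its probes. The collagens had 78 probes for 40 genes and the whole array 41174 for 27678, and the shares were not adjusted for this. Fibrillar genes were detected in every group, 8 to 10 of 11, as were 4 or 5 of the 6 Col4 genes. The map of all tested collagens shows that the classes did not follow one course: Col1a1, Col1a2, Col3a1, Col5a1, Col5a2 and the 3 type VI chains were highest in the Dazl GFP-positive ES cells, while Col4a1, Col4a2 and Col4a5 were highest at day 16.

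**Figure D1:**
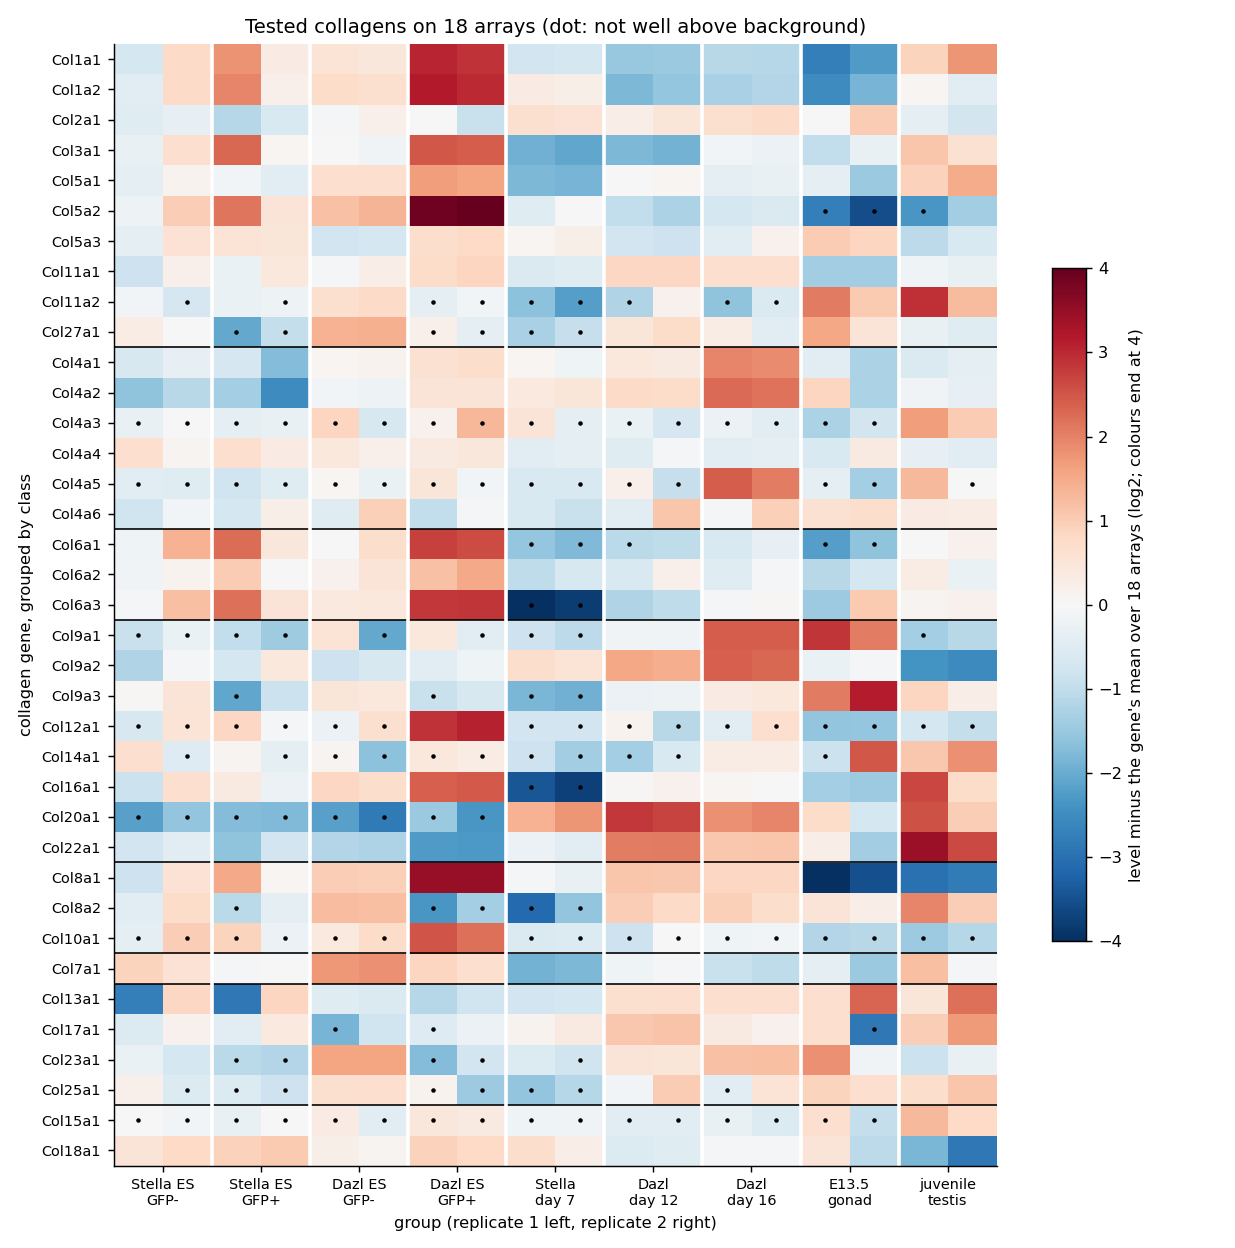
Heat map of the 37 tested collagens (rows, grouped by class between the black lines) on 18 arrays (columns, 9 groups with replicate 1 left and replicate 2 right), coloured by the log2 level minus the gene's own mean over the 18 arrays. A dot marks an array on which no signal well above background was found for that probe; a red block is formed by Col1a1, Col1a2, Col3a1, Col5a2 and the Col6 chains in the Dazl GFP-positive ES cells, and Col4a1, Col4a2 and Col4a5 are reddest at day 16.

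A gene is called here when its adjusted p (limma's moderated two-sided test over all 9 groups, Benjamini-Hochberg over the 18876 genes tested) is under 0.05. In the Stella ES sort 0 of the 37 collagens were called, against 0.440% of all genes in either direction, and 2 had an unadjusted p under 0.05. In the Dazl ES sort 7 collagens were higher in the GFP-positive cells and 2 were lower, where 1.48% of all genes were called higher and 1.39% lower. The change itself differed between the sorts for 0 collagens, with 9 at an unadjusted p under 0.05 and 0.0318% of all genes called. Day 7 against the Stella GFP-positive ES cells had 4 collagens higher and 8 lower, with 7.62% and 13% of all genes. Day 12 against the Dazl GFP-positive ES cells had 5 higher and 14 lower (13.1% and 14.2% of all genes), and day 16 against the same ES cells had 10 higher and 14 lower (11.1% and 13.6%). The Dazl ES sort and the comparisons of day 12 and day 16 with ES cells share the Dazl GFP-positive ES arrays, so a level that is high there enters the sort with 1 sign and both time points with the other. Between day 12 and day 16 only Col4a5 was called, higher, where 0.609% of all genes were called higher and 0.392% lower. E13.5 against day 12 had 4 collagens higher and 9 lower (23% and 19% of all genes), so that the share of collagens was below the background for higher genes and close to it for lower ones. Juvenile testis against E13.5 had 13 higher and 8 lower (16% and 18.9%).

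Of these 99 calls, 9 were of genes whose tested probe passed the filter only through the group in which it was then called higher, so that they had to differ and are given as description. They were Col12a1 in the Dazl ES sort, Col10a1 and Col12a1 at days 12 and 16, Col4a5 at day 16 against both ES cells and day 12, and Col4a3 and Col15a1 in juvenile testis. Without them 6 collagens were higher in the Dazl ES sort, 12 lower at day 12, 9 higher and 12 lower at day 16, 0 higher at day 16 than at day 12 and 11 higher in juvenile testis.

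With the library labelled E13.5 replicate 1 left out, whose removal also changes the spread that all groups share, the counts in the same order were 1 for the Stella ES sort, 14 for the Dazl ES sort, 0 for their difference, 15 at day 7, 24 at day 12, 28 at day 16, 3 between day 12 and day 16, 16 at E13.5 and 19 in juvenile testis. The call in the Stella ES sort was then Col9a3 (-1.76 on the log2 scale). Of the calls made with all arrays, those of Col11a2 and Col16a1 at E13.5 and of Col1a2, Col6a1, Col23a1 and Col27a1 in juvenile testis were lost, and the other 93 of 99 were kept with the same sign. Leaving out any 1 of the 4 arrays of the Dazl ES sort left 0 of its 9 calls. For day 7, leaving out day 7 replicate 1 left 6 calls. For day 16 against ES cells, leaving out day 16 replicate 1 or Dazl GFP-positive ES replicate 2 left 15 each, and for E13.5 against day 12, leaving out day 12 replicate 1 left 8. The call between day 12 and day 16 was lost without day 12 replicate 2 or either day 16 array.

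The calls that held whichever 1 of a comparison's 4 arrays was left out were fewer. At day 7 they were those of Col3a1, Col5a1, Col6a1, Col6a3, Col16a1 and Col20a1, 6 of 12. At day 12 they were 15 of 19, all but Col6a2, Col16a1, Col18a1 and Col23a1. At day 16 they were 12 of 24: Col1a1, Col1a2, Col3a1, Col5a1, Col5a2, Col6a1, Col8a1, Col9a2, Col10a1, Col12a1, Col20a1 and Col22a1. At E13.5 they were 8 of 13, those of Col5a3, Col8a1, Col11a1, Col20a1, Col22a1 and the 3 type IX chains. In juvenile testis they were 11 of 21, those of Col1a1, Col4a3, Col5a1, Col5a3, Col11a1, Col16a1, Col18a1, Col22a1 and the type IX chains. Every other called change of a collagen lost its call when some 1 of its 4 arrays was left out. Among those that held, Col10a1 and Col12a1 at days 12 and 16 and Col4a3 in juvenile testis are genes that passed the filter only through the higher group.

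Among the fibrillar chains, type I and type III collagen were highest in the Dazl GFP-positive ES cells, fell in the Dazl-derived cells and, for type I, were higher in juvenile testis than at E13.5. In this bulk RNA, fewer cells of a type and less RNA per cell cannot be told apart. Col1a1 encodes the alpha 1 chain of type I collagen, the main fibril of skin, bone and tendon. Its levels on replicates 1 and 2, the order used throughout, were -0.38 and 1.09 in Stella GFP-negative and 2.11 and 0.65 in Stella GFP-positive ES cells, and 0.88 and 0.78 in Dazl GFP-negative and 3.38 and 3.20 in Dazl GFP-positive ES cells. The level was -0.45 and -0.38 at day 7, -1.19 and -1.17 at day 12, -0.78 and -0.80 at day 16, -2.42 and -1.95 at E13.5 and 1.21 and 2.10 in juvenile testis. Both Dazl GFP-positive arrays lay above every other array, and both E13.5 arrays lay below every other.

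Col1a2, the alpha 2 chain of the same fibril, had levels of 0.85 and 2.05, 3.26 and 1.51, 2.03 and 1.93 and 4.47 and 4.28 in the 4 ES groups in that order. It stood at 1.61 and 1.53 at day 7, -0.49 and -0.26 at day 12, 0.01 and 0.12 at day 16, -1.20 and -0.55 at E13.5 and 1.36 and 0.83 in juvenile testis. Col3a1, the single chain of type III collagen of vessels and soft organs, had -1.28 and -0.31, 1.31 and -0.92, -0.96 and -1.13 and 1.48 and 1.43 in the ES groups. Its lowest values were -2.91 and -3.06 at day 7 and -2.79 and -2.89 at day 12, and it stood at -1.09 and -1.24 at day 16, -1.96 and -1.29 at E13.5 and 0.11 and -0.40 in juvenile testis. All 3 genes were well above background on all 18 arrays. In the Stella GFP-positive ES cells replicate 1 was high for all 3 and replicate 2 was not.

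**Figure D2:**
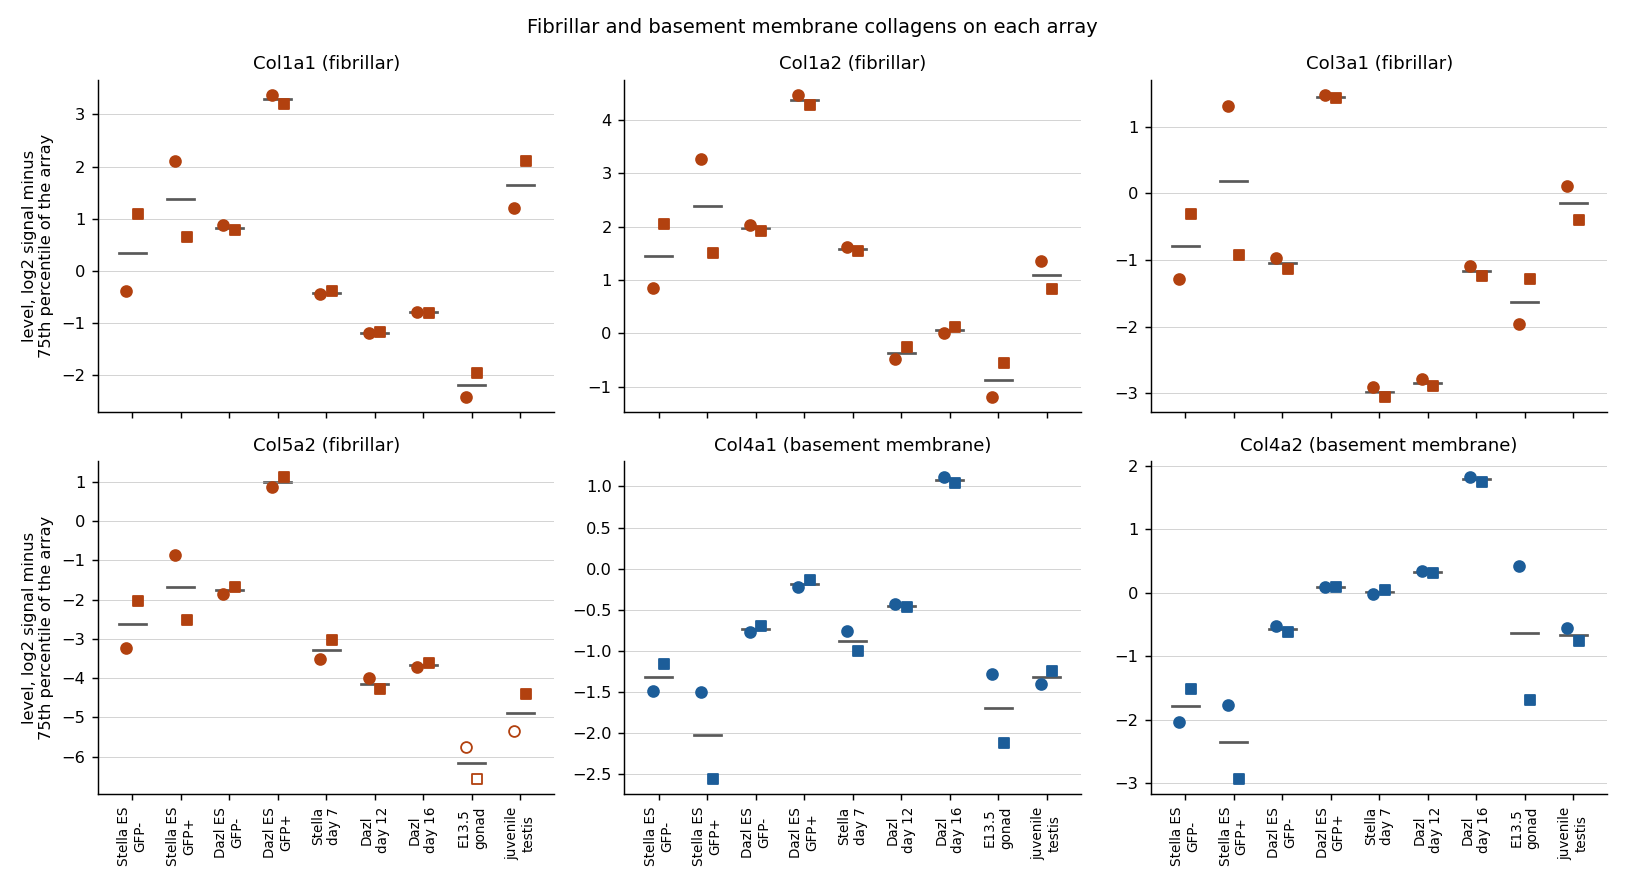
Levels of 4 fibrillar and 2 Col4 genes on each array (vertical axis, log2 signal minus the array's 75th percentile; circles replicate 1, squares replicate 2, lines the mean of the 2; open symbols not well above background). The Dazl GFP-positive ES cells are the highest group for Col1a1, Col1a2, Col3a1 and Col5a2, at 3.38 and 3.20 for Col1a1, while day 16 is the highest for Col4a1 and Col4a2, at 1.12 and 1.05 for Col4a1.

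In the Dazl ES sort Col1a1 was 5.50-fold higher in GFP-positive than in GFP-negative cells (log2 change 2.46 ± 0.50, SE, 2 arrays a group, adjusted p = 0.0273). Col1a2 was 5.27-fold higher (adjusted p = 0.0307) and Col3a1 5.67-fold higher (adjusted p = 0.0386). The change was alike on both slides: for Col1a1 it was 2.50 within the slide that held replicate 1 of both groups and 2.42 within the other. Of 10 fibrillar genes 5 rose and 0 fell in this sort, where 1.48% of all genes rose and 1.39% fell. The other 2 that rose were Col5a2 at 6.79-fold and Col5a3 at 2.81-fold. The fibrillar median was 1.22 against 0.05 over all genes tested. With slide as a block 1 of the 9 collagen calls was kept. In the Stella ES sort Col1a1 differed by 1.03 ± 0.50 (SE, adjusted p = 0.861), which was 2.49 on the slide of the 2 first replicates and -0.43 on the slide of the second. Col1a2 and Col3a1 changed sign between these slides in the same way, from 2.41 to -0.55 and from 2.59 to -0.61.

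Markers of fibroblasts moved with the fibrillar genes in the Dazl ES sort. The summed signal of 20 fibroblast markers (a list without collagens, in units of the array's 75th percentile) was 139 and 135 in Dazl GFP-negative cells and 279 and 278 in GFP-positive cells, and that of the 10 fibrillar genes was 11.7 and 11.5 against 46.3 and 42. Of these markers 4 of 20 rose and 0 fell, against 1.48% and 1.39% of all genes, with a list median of 1.40. The 3 with the smallest p were Mfap5, a microfibril protein (1.56), Snai2, a transcription factor of mesenchymal cells (2.02), and Fbn1, the main microfibril protein (2.28). On the 4 Dazl ES arrays 18 to 20 of the 20 markers were well above background, and on the 4 Stella ES arrays 16 to 19. In Stella ES cells the sums were 50.1 and 82.1 in GFP-negative and 65.9 and 56.7 in GFP-positive cells, with 0 of 20 markers called. The part of fibroblasts in the collagen signal was not tested.

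**Figure D3:**
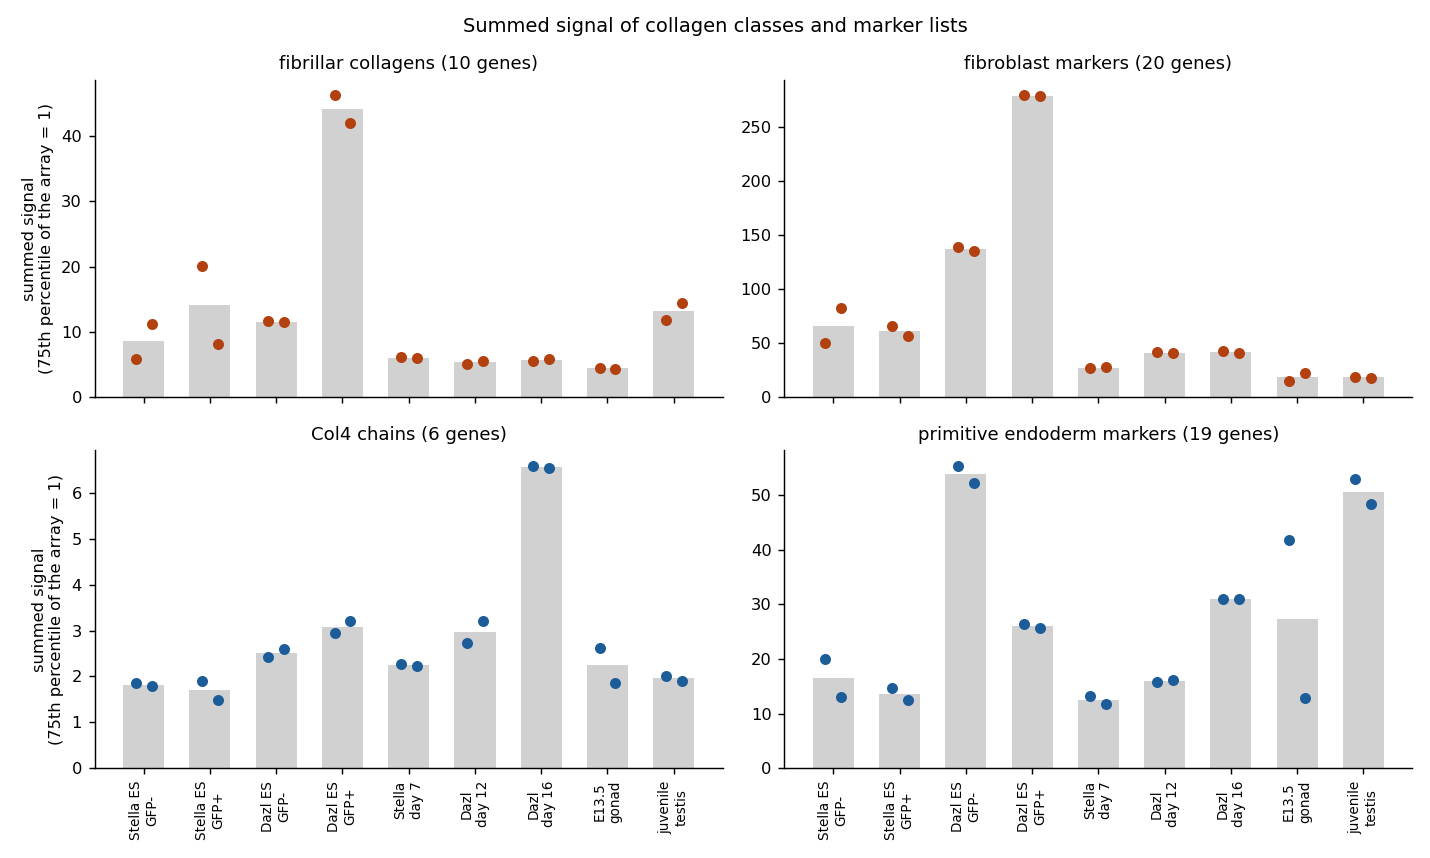
Summed signal per array (points; bars are the mean of the 2 arrays) of the fibrillar and Col4 genes and of fibroblast and primitive endoderm marker lists, in units of the array's 75th percentile, by group. The fibrillar and fibroblast sums are both highest in the Dazl GFP-positive ES cells (46.3 and 42 for the fibrillar genes), and the Col4 sum is highest at day 16 (6.59 and 6.53).

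Type I collagen was far lower in the Dazl-derived cells than in the ES cells they were compared with. At day 12 Col1a1 fell 22.2-fold (log2 change -4.47 ± 0.50, adjusted p = 0.000102), Col1a2 fell 26.9-fold and Col3a1 fell 19.6-fold against Dazl GFP-positive ES cells. At day 16 the falls were 16.9-fold for Col1a1, 19.9-fold for Col1a2 and 6.14-fold for Col3a1 (adjusted p = 0.00599). On the slide that held both groups, Col1a1 changed by -4.37 at day 12 and by -4.0 at day 16. At each of the 2 days 6 of 10 fibrillar genes fell: Col1a1, Col1a2, Col3a1, Col5a1, Col5a2 and Col5a3. Of all genes, 14.2% fell at day 12 and 13.6% at day 16. The fibrillar median was -1.58 at day 12 and -1.42 at day 16, against -0.11 and -0.15 over all genes. Without any 1 of the 4 arrays of a comparison, Col1a1, Col1a2, Col3a1, Col5a1 and Col5a2 kept their calls at both days.

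In the Stella-derived cells of day 7 Col3a1 fell 9.03-fold (log2 change -3.17 ± 0.56, adjusted p = 0.00285) and Col1a1 fell 3.47-fold (adjusted p = 0.0272), while Col1a2 differed by -0.81 ± 0.50 (adjusted p = 0.279). In all, 3 of 10 fibrillar genes fell and 1 rose, where 13% of all genes fell and 7.62% rose. This comparison starts from ES cells whose replicates differed, so that Col1a1 at day 7 was below both arrays of the control and Col1a2 overlapped them, its values of 1.61 and 1.53 lying just above 1.51 in Stella GFP-positive replicate 2. The call of Col1a1 was lost without either day 7 array or without Stella GFP-positive replicate 1 (-1.07, adjusted p = 0.193), and its other probe gave -0.89.

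Fibroblast markers were lower in all 3 differentiated groups as well. At day 7, 14 of 20 fell and 0 rose, at day 12, 15 fell and 1 rose, and at day 16, 14 fell and 1 rose. Of all genes, 13%, 14.2% and 13.6% fell and 7.62%, 13.1% and 11.1% rose at these times. The single marker that rose was Pdgfra, a growth factor receptor that is also a marker of primitive endoderm. The list medians were -1.75, -3.16 and -2.23, and the summed signals were 26.9 to 28 at day 7, 40.8 to 41.9 at day 12 and 41.4 to 42.5 at day 16. Prrx1, a transcription factor of mesenchyme, was not well above background on either array of day 7 or day 12 and was on both of day 16. S100a4, a calcium-binding protein, fell at each time, with log2 changes of -7.02 at day 7, -9.97 at day 12 and -9.51 at day 16. Of the 20 markers, 12 and 11 were well above background on the arrays of day 7, 16 and 16 at day 12, and 19 and 19 at day 16. Thy1, Postn and Pdgfrb were among those detected on all 6 of these arrays. The part of feeder fibroblasts in these falls was not tested.

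Between day 12 and day 16, 0 of 10 fibrillar genes were called and 2 had an unadjusted p under 0.05. Col3a1 had the largest difference, 1.67 ± 0.56 (adjusted p = 0.347), while Col1a1 differed by 0.39 and Col1a2 by 0.44.

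In cells from the animal, type I collagen was higher in juvenile testis than at E13.5. Col1a1 rose 14.3-fold (log2 change 3.84 ± 0.50, adjusted p = 0.000164) and Col1a2 3.93-fold (adjusted p = 0.0101), all arrays being on 1 slide. Col3a1 differed by 1.48 ± 0.56 (adjusted p = 0.0595). Without the library labelled E13.5 replicate 1, Col1a1 rose by 3.61 and Col1a2 lost its call at 1.65 (adjusted p = 0.0566). Col1a2 also lost it without juvenile testis replicate 1 (1.71, adjusted p = 0.0657). Of the 10 fibrillar genes 4 rose and 3 fell, where 16% of all genes rose and 18.9% fell. The fibrillar median was 1.23 against -0.08 over all genes. Between E13.5 and day 12, Col1a1 (-1.0), Col1a2 (-0.50) and Col3a1 (1.21) were not called. There 2 of 10 fibrillar genes were higher at E13.5 and 3 lower, with 23% and 19% of all genes. The count of higher genes lay near that share.

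The sorted cells of juvenile testis also carried markers of testis somatic cells. Of 15 Sertoli cell markers (Sertoli cells nurse the germ cells) 9 rose against E13.5 and 1 fell, with a list median of 2.28. All 15 were well above background on both juvenile arrays, against 9 and 13 at E13.5. Their mean log2 level was -3.53 and -1.17 at E13.5 and 0.33 and -0.91 in juvenile testis. These calls and the median include the library labelled E13.5 replicate 1, the lower of the 2, and are not given without it. Those that rose included Cst12 (8.26) and Inha, an inhibin subunit (3.13), and the marker that fell was Rhox5 (-6.47). The summed Sertoli signal was 419 and 218 at E13.5 and 106 and 23.5 in juvenile testis, but Rhox5 alone made up 417 and 204 of it at E13.5. Without Rhox5, left out after its values were seen, the sum of the other 14 was 1.6 and 14.5 at E13.5 and 99.7 and 21.8 in juvenile testis. Of 20 fibroblast markers 7 rose and 2 fell, led by Fbn1 (3.11), but their summed signal was 15.3 and 22.9 at E13.5 and 19.2 and 18 in juvenile testis. Of 8 Leydig cell markers 1 rose and 1 fell, and of 10 endothelial markers 1 rose and 2 fell. Over all genes tested, 16% rose and 18.9% fell in this comparison, so the Leydig and endothelial counts lay near those shares. The part of these cells in the collagen signal was not tested.

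The type V chains, which start and limit the growth of type I fibrils, did not move as one. Col5a2 followed type I collagen in culture. In juvenile testis its log2 change from E13.5 was 1.29, not called, beside 3.84 for Col1a1 and 1.97 for Col1a2. Its levels were -3.24 and -2.03, -0.88 and -2.51, -1.86 and -1.67 and 0.87 and 1.13 in the 4 ES groups. It stood at -3.50 and -3.04 at day 7, -4.0 and -4.29 at day 12, -3.72 and -3.61 at day 16, -5.76 and -6.57 at E13.5 and -5.35 and -4.40 in juvenile testis, the last 4 being well above background only in juvenile replicate 2. It fell 35.3-fold at day 12 (adjusted p = 6.09e-05) and 25.4-fold at day 16. At E13.5 it was at least 2.36-fold lower than at day 12, a call lost without day 12 replicate 1 or E13.5 replicate 2.

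Col5a1 had 0.87 and 1.36, 1.12 and 0.78, 1.91 and 1.91 and 2.89 and 2.81 in ES cells, then -0.58 and -0.64 at day 7, 1.20 and 1.31 at day 12 and 0.86 and 0.92 at day 16. At E13.5 it had 0.83 and -0.25 and in juvenile testis 2.15 and 2.72. It was called in 5 comparisons: it fell 2.94-fold at day 7, 3.02-fold at day 12 and 3.88-fold at day 16, was 1.96-fold lower at E13.5 than at day 12 and rose 4.43-fold in juvenile testis (adjusted p = 0.000357). Its other probe gave 0.76 at day 7 and 0.55 at E13.5, the opposite sign to the tested probe there, and without E13.5 replicate 2 the change at E13.5 was -0.43 (adjusted p = 0.22).

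Col5a3 ran against the other type V chains in the animal. Its ES levels were -1.86 and -0.90, -0.92 and -0.98, -2.24 and -2.18 and -0.76 and -0.67, followed by -1.39 and -1.23 at day 7, -2.24 and -2.32 at day 12 and -1.89 and -1.30 at day 16. It had -0.47 and -0.62 at E13.5, above every array of day 12, and -2.51 and -2.08 in juvenile testis. It was 3.33-fold higher at E13.5 than at day 12 (adjusted p = 0.000694) and fell 3.37-fold in juvenile testis (adjusted p = 0.000786), and both calls were kept without any 1 of the arrays compared.

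The cartilage-type fibrillar chains followed yet other courses. Col2a1, the chain of type II collagen, had -1.35 and -1.18, -2.01 and -1.48, -0.91 and -0.66 and -0.88 and -1.75 in ES cells and was higher in the differentiated cells, at -0.23 and -0.27 at day 7, -0.58 and -0.37 at day 12 and -0.22 and -0.09 at day 16. It rose 2.82-fold at day 7 (adjusted p = 0.0115) and 2.23-fold at day 16, the one fibrillar gene that rose in either comparison, and at day 12 the difference was 0.84 ± 0.35 (adjusted p = 0.0959). E13.5 gave -0.84 and 0.16 and juvenile testis -1.21 and -1.59, a fall of 2.09-fold. Without Dazl GFP-positive replicate 2 the change at day 16 was 0.73 (adjusted p = 0.243), and without E13.5 replicate 2 that in juvenile testis was -0.56 (adjusted p = 0.243).

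Col11a1, a type XI chain, had -2.76 and -1.74, -2.19 and -1.50, -2.02 and -1.67 and -1.19 and -1.07 in ES cells, -2.52 and -2.41 at day 7, -1.09 and -1.11 at day 12 and -1.28 and -1.27 at day 16. It was lowest at E13.5, with -3.33 and -3.33, and had -2.09 and -2.22 in juvenile testis. It was 4.68-fold lower at E13.5 than at day 12 (adjusted p = 0.000174) and rose 2.25-fold in juvenile testis. Col11a2, the second type XI chain, had -3.85 and -4.41, -4.03 and -3.96, -3.10 and -2.98 and -4.12 and -3.85 in ES cells and -5.38 and -5.97, -4.94 and -3.59 and -5.35 and -4.33 at days 7, 12 and 16. It had -1.67 and -2.69 at E13.5 and -0.83 and -2.48 in juvenile testis, and was 4.25-fold higher at E13.5 than at day 12. Its other probe gave -0.56 in that comparison. The call was lost without the library labelled E13.5 replicate 1 (adjusted p = 0.0948).

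Col27a1, a fibrillar chain of cartilage, had -3.68 and -3.99, -6.03 and -4.93, -2.58 and -2.55 and -3.77 and -4.36 in ES cells, and -5.26 and -4.89, -3.49 and -3.25 and -3.69 and -4.40 at days 7, 12 and 16. Levels of -2.43 and -3.46 at E13.5 and -4.26 and -4.46 in juvenile testis gave a fall of 2.68-fold, which lost its call without the library labelled E13.5 replicate 1 (-0.91, adjusted p = 0.131).

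The Col4 chains did not share the course of type I collagen. Col4a1 and Col4a2, the pair that builds the widespread form of type IV collagen, were highest at day 16. Col4a1 had -1.48 and -1.16, -1.50 and -2.56, -0.77 and -0.70 and -0.22 and -0.14 in the 4 ES groups, then -0.75 and -1.0 at day 7, -0.43 and -0.47 at day 12 and 1.12 and 1.05 at day 16. It had -1.28 and -2.12 at E13.5 and -1.40 and -1.24 in juvenile testis. Every Dazl ES array lay above every Stella ES array, and both day 16 arrays lay above all others.

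Col4a2 had -2.03 and -1.52, -1.77 and -2.93, -0.53 and -0.62 and 0.09 and 0.09 in ES cells, and -0.02 and 0.05, 0.35 and 0.32 and 1.83 and 1.74 at days 7, 12 and 16. It had 0.43 and -1.69 at E13.5, where the library labelled replicate 1 was the higher, and -0.56 and -0.75 in juvenile testis. Both genes were well above background on all 18 arrays. Day 16 had the highest group mean for both. For Col4a2 the arrays of day 12, day 7 and the Dazl GFP-positive ES cells lay between -0.02 and 0.35, below E13.5 replicate 1.

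In the Dazl ES sort, where type I collagen rose, Col4a1 differed by 0.55 ± 0.33 (adjusted p = 0.548) and Col4a2 by 0.66 ± 0.54 (adjusted p = 0.743). The other probe of Col4a1 gave -0.46. None of the 6 Col4 genes was called in either ES sort, with 0 at an unadjusted p under 0.05 in each by limma.

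At day 7 the pair rose while Col1a1 and Col3a1 fell: Col4a2 rose 5.15-fold (log2 change 2.37 ± 0.54, adjusted p = 0.0104) and Col4a1 2.22-fold (adjusted p = 0.0293). Both calls were lost without either day 7 array and without Stella GFP-positive replicate 2, which left 1.78 for Col4a2 (adjusted p = 0.0825) and 0.62 for Col4a1 (adjusted p = 0.206). At day 12 Col4a1 (-0.27) and Col4a2 (0.24) were not called, and 0 of 6 Col4 genes were, 2 having an unadjusted p under 0.05. At day 16 Col4a2 rose 3.24-fold (log2 change 1.70 ± 0.54, adjusted p = 0.0393) and Col4a1 2.41-fold (adjusted p = 0.0161). Within the slide shared with ES cells, the changes at day 16 were 1.65 and 1.19. Without any 1 of the 4 arrays the changes stayed between 1.65 and 1.74 for Col4a2 and between 1.23 and 1.31 for Col4a1, but neither passed the test, with adjusted p-values from 0.129 to 0.156 and from 0.067 to 0.0915. With slide as a block the adjusted p-values were 0.108 and 0.0523, and after normexp, another way of correcting for background, the changes were 0.92 and 0.68, not called.

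Set beside each other, the class medians were -1.18 for fibrillar and 0.22 for Col4 genes at day 7, -1.58 and -0.41 at day 12, and -1.42 and 1.10 at day 16. The day 7 median of the Col4 genes turned to -0.62 after normexp background correction. That of day 16, which counts Col4a5, was 0.42 after normexp and 0.07 after normexp fitted without negative spots. Between day 12 and day 16, Col4a1 differed by 1.53 ± 0.33 (adjusted p = 0.0568) and Col4a2 by 1.45 ± 0.54 (adjusted p = 0.448). Without the library labelled E13.5 replicate 1 both passed the test there, with adjusted p-values of 0.021 and 0.0439.

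**Figure D4:**
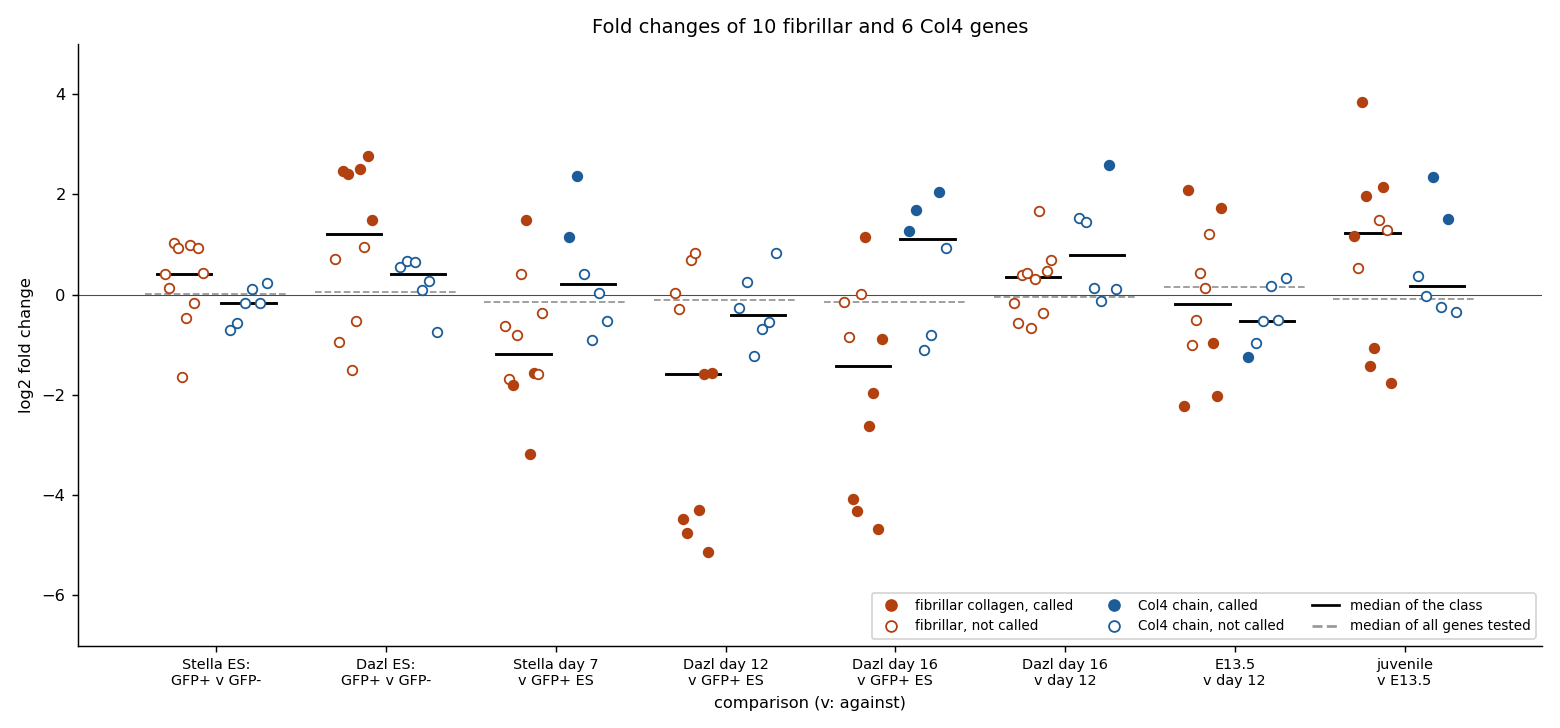
Log2 fold change (vertical axis) of the 10 tested fibrillar genes (orange) and 6 Col4 genes (blue) in 8 comparisons; filled symbols were called at an adjusted p under 0.05, black lines are class medians and dashed lines the median of all genes tested. The fibrillar genes spread from -5.14 to 0.84 at day 12. At day 16, 3 Col4 genes, Col4a5 among them as a description only, were called higher and 6 fibrillar genes lower. Of all genes, 11.1% were called higher and 13.6% lower there.

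Col4a5, a chain of the kidney and eye basement membrane, was well above background on both arrays of day 16 and in juvenile testis replicate 1 and on no other array. Its levels were -5.79 and -6.90 at day 12, -3.56 and -3.95 at day 16, -6.38 and -7.34 at E13.5 and -4.70 and -6.01 in juvenile testis, with ES and day 7 values from -6.78 to -5.49. It was at least 2.17-fold higher at day 16 than at day 12, at least 1.18-fold higher than in Dazl GFP-positive ES cells and at least 1.02-fold higher in juvenile testis than at E13.5. It could be tested only through day 16, so the first pair of changes is a description. Fold changes of this kind are lower bounds, because the lower group was not well above background and the lowest signal measurable there stands in for it. After normexp the change in juvenile testis reversed (-0.37), after normexp fitted without negative spots so did that against ES cells (-0.19), and without juvenile replicate 1 the former was 0.85 (adjusted p = 0.227).

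Col4a6, its neighbour, had a tested probe that was never called, with 0.94 at day 16, while its other 2 probes gave 2.24 and 5.59 there, so the probes disagree. Col4a3, a partner chain in the same membranes, was well above background only on both juvenile arrays, through which alone it was tested. It was at least 1.36-fold higher there than at E13.5, a description that reversed after normexp (-0.34). Col4a4 was well above background on all 18 arrays and was not called in any comparison. Its tested probe gave -0.25 in juvenile testis and its other probe gave 4.25.

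In the animal, Col4a1 was 2.38-fold lower at E13.5 than at day 12 (adjusted p = 0.00975; -0.83 and adjusted p = 0.0731 without E13.5 replicate 2) and Col4a2 differed by -0.97 ± 0.54 (adjusted p = 0.173). Between E13.5 and juvenile testis, where Col1a1 rose 14.3-fold, Col4a1 differed by 0.38 ± 0.33 (adjusted p = 0.423) and Col4a2 by -0.02 ± 0.54 (adjusted p = 0.982). The Col4 median there was 0.18 against 1.23 for fibrillar genes, and 0.92 against 1.16 without the library labelled E13.5 replicate 1.

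Markers of primitive endoderm, the early embryo's source of basement membrane, were followed beside the Col4 chains. At day 16, 5 of 19 rose against ES cells and 1 fell, and between day 12 and day 16, 2 rose and 0 fell, which were Dab2, an adaptor protein (2.23), and Cubn, an endocytic receptor (8.22). At day 12, 1 rose and 5 fell. The shares of all genes that rose and fell were 11.1% and 13.6% at day 16 and 13.1% and 14.2% at day 12. Between day 12 and day 16 they were 0.609% and 0.392%. The summed signal was 26.3 and 25.7 in Dazl GFP-positive ES cells, 15.7 and 16.1 at day 12 and 31.0 and 30.9 at day 16, beside Col4 sums of 2.95 and 3.21, 2.73 and 3.21, and 6.59 and 6.53. The endoderm sums were higher than at day 16 in the Dazl GFP-negative ES cells, at 55.3 and 52.2, where the Col4 sums were 2.42 and 2.59, and in juvenile testis, at 52.9 and 48.3. At E13.5 they were 41.7 and 12.8. Of the 19 markers, 15 and 16 were well above background at day 12 and 19 and 19 at day 16. Gata6, Sox17 and Foxa2, transcription factors of endoderm, were among those detected on all 4 of these arrays. Sox7 was detected on both of day 16 and neither of day 12. At day 7, 1 marker rose and 1 fell (7.62% and 13% of all genes). In the Stella ES sort 0 rose and 1 fell (0.440% in either direction), and in the Dazl ES sort 0 rose and 3 fell (1.48% and 1.39%). The list holds Lama1, Lamb1 and Sparc, which are also counted among the basement membrane genes. The part of such cells in the Col4 signal was not tested.

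The 3 tested chains of type VI collagen, which forms beaded filaments between fibrils and cells, followed type I collagen in culture. Col6a1 had -3.36 and -1.81, -0.96 and -2.74, -3.21 and -2.47 and -0.44 and -0.59 in ES cells, -4.72 and -4.95 at day 7, -4.25 and -4.20 at day 12 and -3.79 and -3.50 at day 16. It had -5.39 and -4.80 at E13.5 and -3.18 and -3.0 in juvenile testis. Col6a2 had -2.96 and -2.70, -1.81 and -2.80, -2.67 and -2.31 and -1.65 and -1.31 in ES cells, -3.85 and -3.47 at day 7, -3.43 and -2.63 at day 12, -3.31 and -2.90 at day 16, -3.92 and -3.52 at E13.5 and -2.54 and -3.08 in juvenile testis. The highest values of both were those of the Dazl GFP-positive ES cells.

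Col6a3, the large chain, had -2.27 and -0.98, 0.02 and -1.68, -1.78 and -1.77 and 0.66 and 0.69 in ES cells and its lowest values, -6.36 and -5.98, at day 7, where it was not well above background. It had -3.38 and -3.20 at day 12, -2.23 and -2.13 at day 16, -3.63 and -1.15 at E13.5 and -2.07 and -2.0 in juvenile testis. All 3 chains fell in each comparison of differentiated with ES cells, where 13%, 14.2% and 13.6% of all genes fell at days 7, 12 and 16. At day 7 Col6a3 fell at least 13.3-fold (adjusted p = 0.000574), Col6a1 at least 6.58-fold and Col6a2 2.56-fold. At day 12 the falls were 15.6-fold, 13.1-fold and 2.93-fold in the same order, and at day 16 7.23-fold, 8.74-fold and 3.1-fold. The fall of Col6a3 at day 16 lost its call without any 1 of the 4 arrays (adjusted p from 0.0628 to 0.0734). In the Dazl ES sort 0 of the 3 were called and all 3 had an unadjusted p under 0.05, with log2 changes from 1.01 to 2.45. Col6a1 rose at least 4.0-fold in juvenile testis, a call lost without the library labelled E13.5 replicate 1 (1.70, adjusted p = 0.0762). Col6a2 (0.91) and Col6a3 (0.36) were not called in that comparison.

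The FACIT collagens, which lie on fibrils and link them to other matrix, split in 2 directions when differentiated cells were compared with ES cells. Col16a1 went with type I collagen. It had -1.96 and -0.43, -0.73 and -1.34, -0.28 and -0.41 and 1.28 and 1.36 in ES cells, -4.52 and -4.83 at day 7, -1.06 and -0.91 at day 12, -1.04 and -1.08 at day 16, -2.47 and -2.56 at E13.5 and 1.58 and -0.37 in juvenile testis. It fell at least 11.4-fold at day 7, 4.94-fold at day 12 and 5.20-fold at day 16, and rose 8.71-fold in juvenile testis. At E13.5 it was 2.89-fold lower than at day 12, a call lost without the library labelled E13.5 replicate 1 (adjusted p = 0.102). Col12a1 was well above background only on the 2 Dazl GFP-positive ES arrays, through which alone it was tested. As a description, it was at least 2.86-fold higher there than in GFP-negative cells, at least 3.78-fold higher than at day 12 and at least 3.93-fold higher than at day 16, the last reversed after normexp (0.20).

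Col20a1 and Col22a1 went the other way in the differentiated cells. Like Col16a1, both were lower at E13.5 than at day 12 and higher in juvenile testis than at E13.5. Col20a1 was not well above background on any ES array, with values from -6.72 to -5.37, and had -2.50 and -2.11 at day 7, -1.06 and -1.17 at day 12, -2.06 and -1.92 at day 16, -3.14 and -4.59 at E13.5 and -1.33 and -2.90 in juvenile testis. It rose at least 5.0-fold at day 7, at least 7.35-fold at day 12 and at least 4.01-fold at day 16, was 6.71-fold lower at E13.5 than at day 12 and rose 3.36-fold in juvenile testis. The rise at day 7 reversed after normexp (-0.16), and that in juvenile testis was 0.97 without juvenile replicate 1 (adjusted p = 0.222).

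Col22a1, found at tissue junctions such as that of muscle and tendon, had -1.48 and -1.19, -2.35 and -1.49, -1.91 and -1.97 and -3.0 and -3.02 in ES cells and -0.97 and -1.16 at day 7. It had 1.34 and 1.36 at day 12, 0.34 and 0.38 at day 16, -0.44 and -2.12 at E13.5 and its highest values, 2.71 and 1.91, in juvenile testis. It rose 20.5-fold at day 12 (adjusted p = 6.2e-05) and 10.4-fold at day 16, was 6.21-fold lower at E13.5 than at day 12 and rose 12.1-fold in juvenile testis (adjusted p = 0.000132). All 4 of these calls were kept without any 1 of the arrays compared, and the gene's other probe gave -0.57 in the comparison at E13.5.

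The 3 chains of type IX collagen, a coat of cartilage fibrils, fell together in juvenile testis. Col9a1 had -4.25 and -4.25 at day 12, -1.69 and -1.69 at day 16, -1.25 and -2.08 at E13.5 and -5.48 and -5.23 in juvenile testis. In ES cells it had -5.02 and -4.39, -5.11 and -5.54, -3.57 and -6.17 and -3.69 and -4.53, and at day 7 -4.94 and -5.17, mostly not well above background. It rose 5.35-fold at day 16 and was 6.0-fold higher at E13.5 than at day 12.

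Col9a2 had -1.22 and -0.09, -0.69 and 0.41, -0.82 and -0.65 and -0.41 and -0.18 in ES cells, 0.70 and 0.54 at day 7, 1.55 and 1.45 at day 12, 2.39 and 2.28 at day 16, -0.28 and -0.10 at E13.5 and -2.40 and -2.56 in juvenile testis. It rose 3.47-fold at day 12 and 6.18-fold at day 16 and was 3.22-fold lower at E13.5 than at day 12. Col9a3 had -2.78 and -2.32, -4.92 and -3.70, -2.35 and -2.42 and -3.74 and -3.48 in ES cells, -4.68 and -4.75 at day 7, -3.08 and -3.03 at day 12, -2.50 and -2.42 at day 16, -0.76 and 0.29 at E13.5 and -1.98 and -2.58 in juvenile testis. It was 7.06-fold higher at E13.5 than at day 12 (adjusted p = 0.000235). In juvenile testis Col9a1 fell 12.9-fold, Col9a2 4.89-fold and Col9a3 4.13-fold, and all 3 kept their calls without any 1 of the 4 arrays. Col14a1, a further FACIT chain, was not called in any comparison.

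Of the network-forming chains, Col8a1 and Col8a2 are those of type VIII collagen (vessel walls and the cornea's inner membrane). They went opposite ways in the Dazl ES sort and at days 12 and 16 against ES cells. Their changes had the same sign at day 7 (-0.99 and -1.62), at E13.5 against day 12 (-5.10 and -0.50) and in juvenile testis (1.13 and 1.09). Of these, only that of Col8a1 at E13.5 was called. Col8a1 had -1.05 and 0.39, 1.33 and -0.11, 0.78 and 0.75 and 3.30 and 3.29 in ES cells, -0.26 and -0.50 at day 7, 0.92 and 0.86 at day 12, 0.63 and 0.61 at day 16, -4.70 and -3.72 at E13.5 and -3.17 and -2.99 in juvenile testis. It was 5.77-fold higher in Dazl GFP-positive than GFP-negative ES cells, fell 5.30-fold at day 12 and 6.38-fold at day 16, and was 34.3-fold lower at E13.5 than at day 12 (adjusted p = 1.89e-05). That last change had the smallest p of any collagen in the comparison.

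Col8a2 had -3.73 and -2.54, -4.36 and -3.65, -2.03 and -2.08 and -5.59 and -4.62 in ES cells, -6.38 and -4.87 at day 7, -2.28 and -2.51 at day 12, -2.32 and -2.56 at day 16, -2.77 and -3.02 at E13.5 and -1.33 and -2.28 in juvenile testis. It was at least 3.84-fold lower in Dazl GFP-positive than GFP-negative ES cells, where it was not well above background, and rose at least 3.04-fold and at least 2.94-fold at days 12 and 16. After normexp the change in the sort was 0.0016 and that at day 12 -0.23. Col10a1, a chain of growth plate cartilage, was well above background only on the 2 Dazl GFP-positive ES arrays, through which alone it was tested. As a description, it was at least 2.15-fold lower at day 12 and at least 2.24-fold lower at day 16, the latter reversed after normexp (0.29).

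Among the remaining chains, Col7a1, the anchoring fibril of the skin, had 1.42 and 1.10, 0.47 and 0.55, 2.26 and 2.37 and 1.39 and 1.21 in ES cells and -1.35 and -1.27, 0.37 and 0.44 and -0.35 and -0.47 at days 7, 12 and 16. It had 0.16 and -0.96 at E13.5 and 1.74 and 0.49 in juvenile testis. It fell 3.53-fold at day 7 and 3.29-fold at day 16 and rose 2.86-fold in juvenile testis (0.90 and adjusted p = 0.0847 without juvenile replicate 1).

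Col18a1, a basement membrane proteoglycan whose end fragment is endostatin, had 6.04 and 6.32, 6.43 and 6.56, 5.76 and 5.62 and 6.43 and 6.32 in ES cells and 6.23 and 5.79, 4.98 and 5.04 and 5.46 and 5.47 at days 7, 12 and 16. It had 6.04 and 4.47 at E13.5 and 3.70 and 2.67 in juvenile testis, below every other array. It fell 2.57-fold at day 12 and 4.20-fold in juvenile testis (adjusted p = 0.00322). Col15a1, the other multiplexin, was well above background only on both juvenile arrays, through which alone it was tested. Its difference from E13.5 there (1.21) is a description with no fold, because the lower bound was under 1, and it reversed after normexp (-0.46).

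The transmembrane chains were Col13a1, Col17a1, Col23a1 and Col25a1, of which Col13a1 and Col25a1 were not called. Col23a1 had -3.97 and -4.39, -4.76 and -4.88, -2.13 and -2.13 and -5.44 and -4.48 in ES cells, -4.24 and -4.49 at day 7, -3.18 and -3.22 at day 12, -2.54 and -2.51 at day 16, -1.87 and -3.83 at E13.5 and -4.57 and -3.98 in juvenile testis. It was at least 3.64-fold lower in Dazl GFP-positive than GFP-negative ES cells, rose at least 1.73-fold and at least 2.77-fold at days 12 and 16 and fell 2.69-fold in juvenile testis, a call lost without the library labelled E13.5 replicate 1 (-0.45, adjusted p = 0.368). The change at day 12 reversed after normexp (-0.34). Col17a1, a hemidesmosome protein, had -3.80 and -3.06, -3.66 and -2.83, -5.10 and -4.02 and -3.75 and -3.46 in ES cells, -3.11 and -2.87 at day 7, -2.15 and -2.11 at day 12, -2.87 and -3.07 at day 16, -2.58 and -6.10 at E13.5 and -2.25 and -1.53 in juvenile testis. It rose 5.46-fold in juvenile testis, by 4.21 on the log2 scale without the library labelled E13.5 replicate 1 and by 0.69 without replicate 2 of E13.5 (adjusted p = 0.331).

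The enzymes and chaperones that make collagen moved in part with the fibrillar genes. Of 29 such genes tested, 4 rose and 0 fell in the Dazl ES sort (1.48% and 1.39% of all genes). They were led by Loxl1 (2.20) and Loxl3 (2.95), which cross-link fibrils, and Adamts2 (2.0), which trims procollagen. At day 7, 2 rose and 7 fell, at day 12, 5 rose and 12 fell, and at day 16, 6 rose and 11 fell. Of all genes, 7.62%, 13.1% and 11.1% rose and 13%, 14.2% and 13.6% fell at these times. The cross-linking enzyme Lox fell at days 7, 12 and 16, with log2 changes of -4.17, -7.32 and -5.67, and so did the chaperone Fkbp10, with -2.41, -2.51 and -1.93. In the same comparisons P4ha1, a prolyl hydroxylase subunit, rose by 1.99, 1.81 and 1.66, and Plod2, a lysyl hydroxylase, by 1.03, 1.24 and 1.56. The list medians at these times, -0.30, -0.42 and -0.45, lay closer to the medians of all genes, -0.15, -0.11 and -0.15, than those of the fibrillar genes did.

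At E13.5, 4 of the 29 were higher than at day 12 and 10 lower, among the latter Loxl2 (-5.56) and P4ha1 (-2.28). Of all genes, 23% were higher and 19% lower there, and in juvenile testis 16% rose and 18.9% fell. In juvenile testis, 3 rose and 7 fell: Fkbp10 rose by 3.49 and Loxl2 by 2.78, while Serpinh1, the collagen chaperone Hsp47, fell (-3.17), as did Crtap (-2.12) and P3h3 (-2.23), which act in prolyl 3-hydroxylation. None was called between day 12 and day 16 or in the Stella ES sort.

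Genes of collagen turnover, breakdown enzymes and their Timp inhibitors, fell in part with the fibrillar genes in culture. Of 12 tested, 2 rose in the Dazl ES sort (1.48% of all genes), the collagenase Mmp13 (2.57) and the inhibitor Timp1 (2.0). None rose at days 7, 12 and 16, and 4, 6 and 5 fell (13%, 14.2% and 13.6% of all genes). Inhibitors were among these falls: Timp3 at day 7 (-1.84), Timp1 (-3.27) and Timp2 (-3.54) at day 12, and Timp1 (-3.52) and Timp3 (-2.01) at day 16. Mmp3 had log2 changes of -5.60, -9.51 and -8.62 at days 7, 12 and 16. Mmp13 had -3.07, -5.25 and -5.37 at those times, and the membrane-bound Mmp14 -1.69, -2.41 and -1.96. At E13.5, 1 was higher than at day 12 and 5 were lower (23% and 19% of all genes). In juvenile testis 4 rose and 1 fell (16% and 18.9%), the latter Mmp15 (-6.13). None was called between day 12 and day 16 or in the Stella ES sort.

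Of 9 collagen receptors, Itga11, the integrin subunit that binds type I collagen, was higher in the GFP-positive cells of the Dazl ES sort (2.46) and fell at days 7, 12 and 16 (-2.16, -2.51 and -2.71). Ddr1, a receptor tyrosine kinase, fell at the same times (-2.06, -1.83 and -1.51). In all, 2, 3 and 3 receptors fell, with 0 rising, where 13%, 14.2% and 13.6% of all genes fell. At E13.5, 3 were higher than at day 12 and 2 lower (23% and 19% of all genes), Ddr2 among the latter (-3.79). In juvenile testis 0 rose and 1 fell (16% and 18.9%).

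Of 18 partners of type IV collagen in basement membranes, 1 rose and 3 fell at day 7, 3 rose and 5 fell at day 12, and 4 rose and 3 fell at day 16. Over all genes, 7.62% rose and 13% fell at day 7, 13.1% and 14.2% at day 12, and 11.1% and 13.6% at day 16. The day 7 counts lay near those shares. Lama5, the laminin alpha 5 chain, fell at days 7, 12 and 16 (-3.13, -1.45 and -1.62), and Fras1, a matrix protein of epithelia, rose (2.47, 2.02 and 2.45). Between day 12 and day 16 the one call was Lama2, the laminin alpha 2 chain, higher by 2.07 ± 0.17 (adjusted p = 0.000158). The peroxidase Pxdn, which cross-links type IV collagen, was lower in the GFP-positive cells of both ES sorts (-1.57 and -1.63) and higher at days 12 and 16 (0.85 and 1.04). In all, 0 partners rose and 1 fell in the Stella ES sort (0.440% of all genes in either direction), and 1 rose and 2 fell in the Dazl ES sort (1.48% and 1.39%). At E13.5, 0 were higher than at day 12 and 5 lower (23% and 19%). In juvenile testis 3 rose and 4 fell (16% and 18.9%), where Lama2 rose by 3.06 and Lamc1, the laminin gamma 1 chain, fell (-1.88).

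Of 12 germ cell markers, 2 rose in the Dazl ES sort (1.48% of all genes), Dazl itself (4.12) and Dmrt1 (1.14). In the Stella ES sort 1 rose, Dppa3 (2.63), with 0.440% of all genes called in either direction. Dazl and Dppa3 are the genes of the sorted reporters, so their rise there is a description. At day 12, 6 rose and 0 fell (13.1% and 14.2% of all genes), and at day 16, 5 rose and 1 fell (11.1% and 13.6%). At E13.5, 8 were higher than at day 12 and 1 was lower (23% and 19%). At day 7, 2 rose and 1 fell (7.62% and 13%), and in juvenile testis 2 rose and 4 fell (16% and 18.9%). The marker that fell at days 7 and 16 was Tdrd1 (-1.70 and -1.39).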

How the data were processed

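RNA extracted with TRIZOL was labelled with the Agilent one-colour protocol and hybridised to Agilent Mouse Whole Genome 4X44K arrays, per the labels' protocols. The deposited scanner tables hold spot intensity values that Feature Extraction 9.1.3.1 made, background-subtracted and processed per the file headers, with flags for signal well above background. Each array's processed intensity was divided by its 75th percentile over spots that are no controls and put on the log2 scale, spots of a probe were averaged, and 172 of 41174 probes with outlier flags were left out, none of them a collagen. A probe was kept when well above background on both arrays of a group (28114 probes), and of a gene's probes the one with the highest mean level was tested. Probes were named from the files, with 22887 updated by accession and 9738 by symbol through a RefSeq table of GRCm38.p6.

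One limma fit (3.58.1, R 4.3.3) over 18 arrays gave moderated tests, adjusted over 18876 genes with Benjamini-Hochberg. The fit had 9 residual degrees of freedom. Where the lower group was not well above background on either array, "at least" sets the higher group's mean against the lowest signal measured above background. Genes of the lists are given as log2 changes without this bound, also where the lower group was not well above background. The precision is limited by 2 arrays a group.

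The collagens, their classes and the gene lists (collagen synthesis, turnover and receptors, basement membrane partners, and markers of fibroblasts, primitive endoderm, Sertoli, Leydig, endothelial and germ cells) were chosen with earlier results of these data known. Values per array are given for 5 set collagens (Col1a1, Col1a2, Col3a1, Col4a1 and Col4a2). They are also given for each other collagen called in a comparison and well above background on at least 9 arrays. Of each list, up to 3 called genes in a direction with the smallest p were to be named, and not all of these are. Some others, such as Timp inhibitors, Thy1 and Gata6, are named beside them. Alternatives were quantile normalization, normexp background correction, other filters, the mean over probes, fits of only the arrays compared, slide and replicate blocks, and leaving out arrays. Normexp fitted without negative spots and slide as a random block were chosen after seeing the data. Tables were handled with pandas 2.3.3 and numpy 2.4.6 in Python 3.11.15 and drawn with matplotlib 3.10.9, and the fit was checked on simulated data.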

Additional observations from a re-analysis of the deposited data

Results flagged for a closer look

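Col4a5 was higher at day 16 than at day 12 of the Dazl-GFP line by 2.59 on the log2 scale, the one collagen called between these time points. Both day 16 arrays were well above background and neither day 12 array was. The gene passed the filter on dim probes only through day 16, so the difference is a description and supports nothing. It was 2.32 after quantile normalization, 1.02 after normexp and 0.19 after normexp fitted without negative spots.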

How the results depend on the processing

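Counts are of collagens called, out of 37 unless given. After normexp they were 4 in the Dazl ES sort, 4 at day 7, 11 at day 12, 7 at day 16 and 16 between day 12 and day 16, and after normexp fitted without negative spots (added after seeing the data) 25 at day 7 and 22 at E13.5. With only the arrays compared they were 22 in the Dazl ES sort, 15 between day 12 and day 16, 7 at E13.5 and 2 in juvenile testis. Slide as a block gave 1 in the Dazl ES sort. Between day 12 and day 16, the mean over probes gave 3, quantile normalization 2 and the filter on every array 0 of 29. Quantile normalization moved the median of all genes by up to 0.13, no filter by 0.32 and normexp by 0.44.

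Leaving out 1 array gave 0 to 1 in the Stella ES sort, 0 to 14 in the Dazl ES sort, 6 to 15 at day 7, 15 to 24 at day 12, 15 to 28 at day 16, 0 to 3 between day 12 and day 16, 8 to 16 at E13.5 and 14 to 19 in juvenile testis, the highest of each (1 of 2 equal ones in the Stella ES sort) being that without E13.5 replicate 1, an array that all comparisons share through the common spread.

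Of 99 called changes 10 reversed under normexp: Col8a2 in the Dazl ES sort (0.0016) and at day 12 (-0.23), Col20a1 at day 7 (-0.16), Col23a1 at day 12 (-0.34), Col10a1 (0.29) and Col12a1 (0.20) at day 16, Col11a2 at E13.5 (-0.0116), and Col15a1 (-0.46), Col4a3 (-0.34) and Col4a5 (-0.37) in juvenile testis. Fitted without negative spots, 5 reversed: Col23a1 at day 12 (-0.0797), Col4a5 at day 16 (-0.19), and Col15a1 (-0.20), Col4a3 (-0.10) and Col4a5 (-0.12) in juvenile testis. Under the filter on every array, Col11a2 at E13.5 became -0.56, its other probe being tested. For the rest the cause was not tested. No change reversed under quantile normalization, the mean over probes, no filter, the fit of only the arrays compared, the replicate block, slide as a random block, slide as a block (which could be fitted for 74 of the 99) or the fit that leaves out E13.5 replicate 1. Collagens near background carry little weight at this signal.

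The labels do not say that a replicate number pairs samples, but same-numbered arrays shared a slide in both ES sorts and between day 12 and day 16, and all arrays of E13.5 and juvenile testis lay on 1 slide. Their deviations correlated at 0.56 in the Stella ES sort, 0.41 in the Dazl ES sort, -0.03 at day 7, 0.33 at day 12, 0.30 at day 16, 0.55 between day 12 and day 16, 0.02 at E13.5 and 0.24 in juvenile testis. With the replicate number as a block, 96 of the 99 calls were kept, and the counts were 0, 9, 12, 19, 25, 1, 12 and 19 in that order.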
